A study of Mus musculus with 20 samples.

Results

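The response of mouse embryonic fibroblasts to tumour necrosis factor (TNF) was followed in 4 of the 20 RNA-seq libraries of the series: unstimulated cells (0 h) and cells exposed to TNF for 0.5, 1 and 3 h. Members were chosen by genotype, agent and time in the labels. These are primary connective tissue cells from C57BL/6 embryos. All 4 libraries come from cells of the genotype crel-/-, which lack the protein c-Rel, 1 of the NF-kB transcription factors, and carry an unaltered Rela gene for its relative RelA. Every response described here is therefore a response of c-Rel-deficient cells. Cells were grown in 10% bovine calf serum, starved overnight in 0.5% serum and given TNF at 10 ng/ml. There was 1 library per time, and nothing in the labels says that the 4 came from separate cultures. The series holds no untreated library at 0.5, 1 or 3 h. Effects of TNF and of time or handling since 0 h therefore cannot be told apart, and response here means difference from 0 h. Where the second genotype, crel-/-RelA-TA-KI, is mentioned, its own 0, 0.5, 1 and 3 h TNF libraries (4 more) were used. This genotype is called the knock-in, and TA is not spelled out in the labels.

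TNF binds its receptor TNFR1 on fibroblasts, which assembles a complex of adaptors and ubiquitin ligases and activates the IkB kinase complex and MAP kinases. The kinase marks IkB proteins for destruction, and RelA-containing NF-kB dimers enter the nucleus and activate genes for chemokines, adhesion molecules, cytokines and the inhibitors that end the signal. Some target genes are transcribed within minutes and shut off again, others accumulate over hours.

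The response grew with time and turned from a small set of rapidly induced genes into a broad change in both directions. In total 13595 genes with at least 1 CPM (counts per 1000000 scaled counts) in at least 1 of the 4 libraries were compared. A gene was called higher or lower where its scaled level differed at least 2-fold from 0 h and the 95% counting interval of the ratio excluded 1. At 0.5 h, 216 genes (1.59%) were higher and 53 (0.39%) lower. At 1 h, 431 (3.17%) were higher and 184 (1.35%) lower. At 3 h, 804 (5.91%) were higher and 664 (4.88%) lower. Over all times 990 genes (7.28%) were higher at least once, 809 (5.95%) were lower at least once, and 3 genes were both. With 1 library against 1, these calls have no replicate check, and no p-value belongs to them. The intervals cover counting error only. Without the scaling factors, the share of higher among all called genes was 75.4%, 60% and 42.8% at 0.5, 1 and 3 h, against 80.3%, 70.1% and 54.8% with them, and the median of all genes stood at -0.15 on the log2 scale at 3 h. The direction of the balance at 3 h therefore depends on the scaling.

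**Figure D1:**
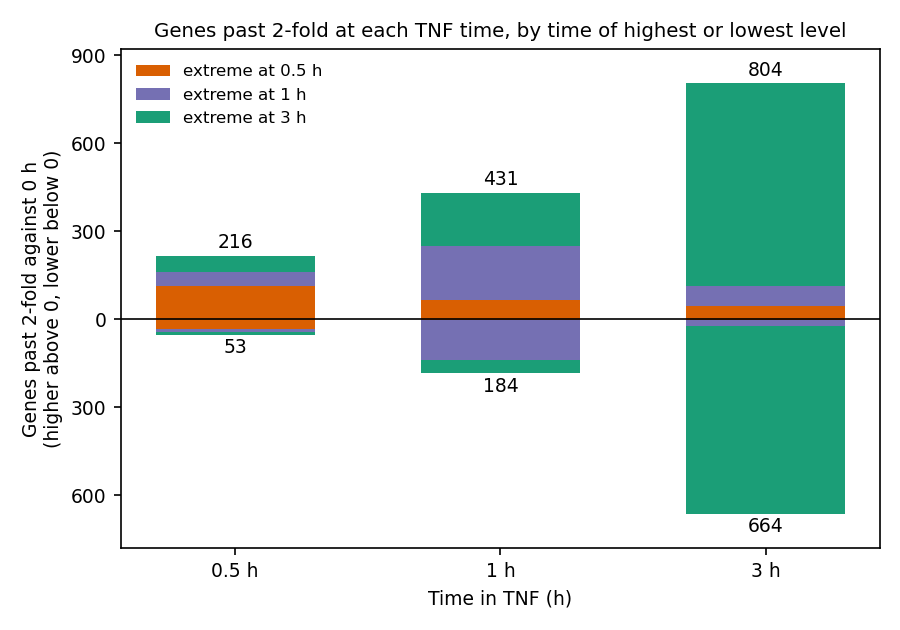
Numbers of genes called higher (above zero) and lower (below zero) than 0 h at each TNF time, divided by the time at which the gene had its highest or lowest TNF level. The x axis is hours of TNF and the y axis the number of genes. The higher genes go from 216 to 431 to 804 and the lower genes from 53 to 184 to 664.

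The share of counts in the higher genes follows from how they were chosen and is given as a description. The 990 genes held 2.65% of all counts at 0 h, 4.65% at 0.5 h, 5.19% at 1 h and 7.33% at 3 h. The 809 lower genes held 1.5%, 1.41%, 1.1% and 0.575%. The libraries held 10329090 to 12466519 counts with 18274 to 18660 genes at 1 count or more, and the detection floor of 3 counts lies at 0.241 to 0.29 CPM before scaling. Fibroblast markers dominated every library: 10 of 10 passed the level filter, none was called, and their summed level lay between 57160 and 65170 CPM. Macrophage markers were present as well, 15 of 15, with none at 0 counts and sums of 5307, 5291, 5485 and 6036 CPM at 0, 0.5, 1 and 3 h. Lyz2, the lysozyme of myeloid cells, stood at 2174, 2065, 2095 and 2291 CPM. Cd14, the lipopolysaccharide co-receptor, was the only macrophage marker called, at 39.9, 118, 147 and 222 CPM. The part of these cells in the responses below was not tested. In bulk RNA, fewer cells of a type and less RNA per cell cannot be told apart. Rel itself, labelled as lost, stood at 17.3, 17.6, 26.5 and 26.2 CPM and was not called. The counts are per gene and do not show which exons were read, so they do not check the deletion. Rela stood at 77.5, 112, 175 and 218 CPM and was called higher at 1 h (1.17) and 3 h (1.49 on the log2 scale).

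Each higher gene was placed in a class by the TNF time of its highest level. Of the 990, 113 (11.4%) peaked at 0.5 h, 186 (18.8%) at 1 h and 691 (69.8%) at 3 h, the last time sampled. Over all genes tested these classes make up 0.831%, 1.37% and 5.08%. The peak stood at least 1.5-fold above both other TNF times in 60, 73 and 531 of them, and the remaining 53, 113 and 160 have no resolved peak time. Median log2 differences from 0 h at 0.5, 1 and 3 h were 2.13, 1.20 and 0.97 in the 0.5 h class, 0.67, 1.41 and 0.81 in the 1 h class, and 0.17, 0.58 and 1.56 in the 3 h class. These medians follow from how the classes were made and test nothing. Across classes, 122 genes were higher at all 3 times (sustained), 177 were higher at 0.5 or 1 h and under 2-fold at 3 h (transient), and 503 were first called at 3 h (late). Of the 216 genes already higher at 0.5 h, 113 peaked then, 49 at 1 h and 54 at 3 h, so early onset and an early peak were not the same property.

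**Figure D2:**
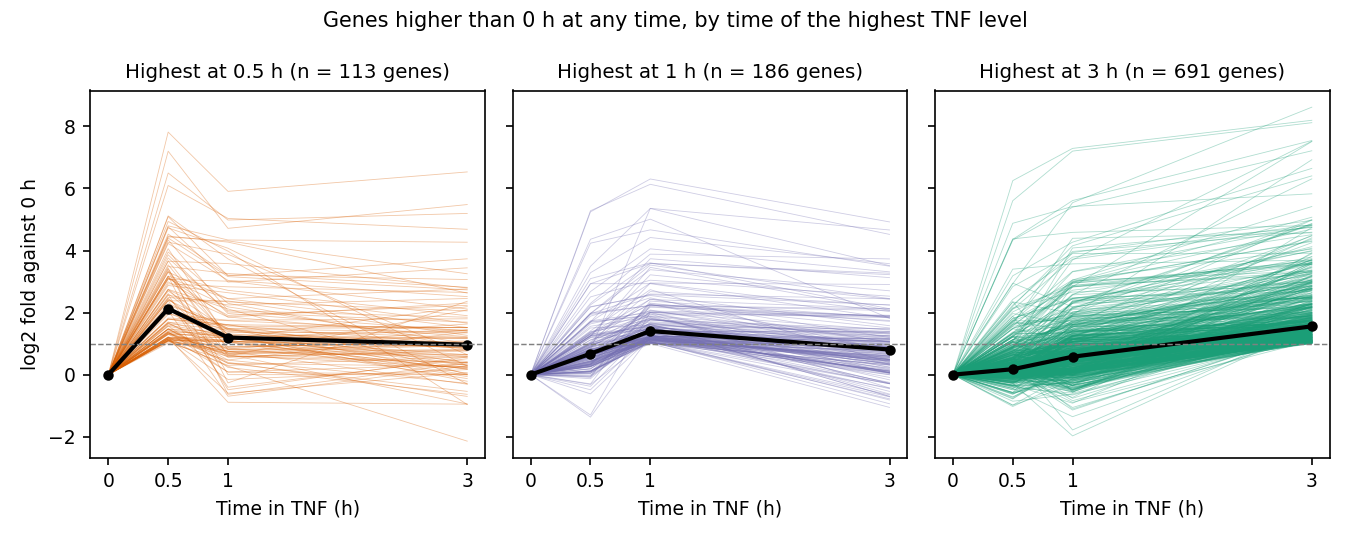
Log2 difference from 0 h (y axis) against hours of TNF (x axis) for each gene of the 3 peak classes (thin lines), with the class medians in black and a dashed line at 2-fold. Medians peak at 2.13 in the 0.5 h class, 1.41 in the 1 h class and 1.56 in the 3 h class, which is how the classes were formed.

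The class that peaked at 0.5 h was led by chemokines, feedback inhibitors of NF-kB and immediate early transcription factors. Cxcl2, a chemokine that attracts neutrophils, had 2 counts at 0 h and stood at 78.3 CPM at 0.5 h, 20.7 at 1 h and 32.1 at 3 h. Its ratio at 0.5 h was 456, with a counting interval of 126 to 3769. Cxcl1, its neighbour on chromosome 5 with the same role, stood at 1.12, 117, 40.7 and 47.2 CPM, a 105-fold difference at 0.5 h (61.0 to 197). Both chemokines were lowest at 0 h and highest at 0.5 h, with a lower level at 1 h. At 3 h Cxcl2 was at least 1.5-fold above its 1 h level and Cxcl1 was not. Il1b, which encodes interleukin 1 beta, had 1 count at 0 h and stood at 38.4, 6.71 and 11.5 CPM under TNF. Its ratio at 0.5 h was 447, and the single count leaves an interval of 79.8 to 17674. Tnf, the gene of the stimulus itself, stood at 2.23, 82.1, 21.8 and 31.9 CPM (log2 differences 5.09, 3.19 and 3.73). Its level at 3 h was less than 1.5-fold above that at 1 h. Ccrl2, a non-signalling chemoattractant receptor, stayed up for longer, at 1.8, 43.6, 38.1 and 12.1 CPM.

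The promoters of Cxcl2 and Cxcl1 are shown because the letters known as the kappa-B consensus, the site bound by NF-kB, occur in both close to the start. Each sequence is the 250 bases before the RefSeq transcription start (GRCm38.p6, the mm10 build), plus strand, at chr5:90903649-90903898 for Cxcl2 and chr5:90890995-90891244 for Cxcl1. Capitals mark the match, in both cases a pair of overlapping matches.
Cxcl2: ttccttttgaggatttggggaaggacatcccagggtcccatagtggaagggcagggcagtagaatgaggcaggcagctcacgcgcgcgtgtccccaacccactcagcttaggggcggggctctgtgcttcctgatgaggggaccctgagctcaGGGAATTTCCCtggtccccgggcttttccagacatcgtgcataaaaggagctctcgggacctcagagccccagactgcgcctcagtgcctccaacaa
Cxcl1: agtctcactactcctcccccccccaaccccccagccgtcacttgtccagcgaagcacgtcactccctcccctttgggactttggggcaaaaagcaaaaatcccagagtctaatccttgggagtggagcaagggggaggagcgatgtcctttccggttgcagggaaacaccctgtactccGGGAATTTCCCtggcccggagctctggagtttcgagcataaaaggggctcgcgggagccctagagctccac

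The feedback inhibitors among the 0.5 h peaks did not return to the 0 h level within 3 h. Nfkbia encodes IkB alpha, which binds NF-kB and takes it out of the nucleus, and lies at chr12:55489411-55492647. It stood at 30.9 CPM at 0 h and at 861, 628 and 598 CPM under TNF, log2 differences of 4.80, 4.34 and 4.27. Tnfaip3 encodes A20, an enzyme that edits ubiquitin chains in the receptor complex, and lies at chr10:19000910-19015657. Its levels were 9.88, 688, 330 and 259 CPM, with log2 differences of 6.10, 5.03 and 4.68. Both inhibitor transcripts kept over 4 log2 units at 3 h. The peak of Tnfaip3 was resolved, and that of Nfkbia was less than 1.5-fold above 1 h.

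Immediate early transcription factors of the same class fell back much further. Nr4a1, an orphan nuclear receptor, stood at 16.8, 590, 226 and 13.6 CPM, so that at 3 h its log2 difference was -0.30. Fosb, an AP-1 subunit, followed the same course at 3.35, 108, 55.5 and 1.63 CPM. Egr4, a zinc finger factor, had 4 counts at 0 h and stood at 0.344, 13.6, 8.58 and 0.454 CPM. All 3 were near or below the 0 h level after 3 h. Junb, another AP-1 subunit, was the exception among these leaders and remained at 201 CPM at 3 h after 23.8, 555 and 221. Dusp2, a phosphatase of MAP kinases, had 3 counts at 0 h and stood at 11.6, 3.26 and 4.54 CPM under TNF, with a ratio at 0.5 h of 45.1 (15.1 to 221).

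The class that peaked at 1 h mixed several functions, and 73 of its 186 peaks were resolved, against 60 of 113 in the 0.5 h class. Rnd1, a small GTPase that reduces cell adhesion, was the leader, at 1.89, 78.3, 163 and 62.5 CPM, an 86.4-fold difference at 1 h (56.9 to 138). Sele, which encodes the leukocyte adhesion molecule E-selectin, had 2 counts at 0 h and stood at 13.4, 24.3 and 7.81 CPM under TNF. Its ratio at 1 h was 141 (38.7 to 1172). Ankrd33b differed from the other leaders in its onset, since it stood at 0.516, 1.03, 28.2 and 17.3 CPM and was not called at 0.5 h. Has1, a hyaluronan synthase, had 1 count at 0 h and reached 10.6 CPM at 1 h, with 2.77 and 2.82 CPM on either side. Its ratio of 123 at 1 h has an interval of 21.6 to 4895.

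Transcription regulators and secreted factors made up most of the remaining leaders at 1 h. Nr4a3, a relative of Nr4a1, stood at 1.8, 40.6, 63.7 and 6.81 CPM. Fosl1, an AP-1 subunit, reached 29.9 CPM at 1 h from 1.63, and Foxs1, a forkhead factor, reached 12.2 from 0.859. Bcl3, an atypical nuclear IkB protein, stood at 7.22, 36.2, 109 and 97.9 CPM, so its peak at 1 h was not resolved from 3 h. Lif, a cytokine of the interleukin 6 family, stood at 3.01, 30.9, 68 and 37.8 CPM. Cd83, a surface protein known from dendritic cells, stood at 28.7, 247, 352 and 126 CPM. Nipal1, a magnesium transporter, reached 16.9 CPM at 1 h from 1.38. Maff, a small Maf factor without an activation domain, stood at 2.92, 58.2, 78.5 and 34.8 CPM, and its peak too was less than 1.5-fold above 0.5 h. Its promoter (chr15:79348152-79348401, plus strand, same build and length) is shown as the example of this class with a kappa-B match, in capitals. It is 1 of 3 RefSeq windows of this gene and lies inside the gene span given in the deposited table.
Maff: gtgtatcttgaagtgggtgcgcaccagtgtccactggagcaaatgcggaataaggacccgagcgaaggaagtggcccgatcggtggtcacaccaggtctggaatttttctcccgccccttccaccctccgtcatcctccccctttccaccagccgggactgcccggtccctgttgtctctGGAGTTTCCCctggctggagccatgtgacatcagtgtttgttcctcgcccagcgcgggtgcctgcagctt

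The class that peaked at 3 h, the last time sampled, was led by chemokines and by genes of innate defence. Ccl2 attracts monocytes and lies at chr11:82035571-82037453. It stood at 4.30 CPM at 0 h and at 218, 660 and 1245 CPM under TNF, a 290-fold difference at 3 h (220 to 390). Ccl7, which lies next to it at chr11:82045712-82047525 and attracts the same cells, stood at 5.24, 159, 232 and 308 CPM. These 2 neighbours were already called at 0.5 h and stood higher at each later time, unlike Cxcl1 and Cxcl2. The level of Ccl7 at 3 h was less than 1.5-fold above that at 1 h, so its peak was not resolved. Ccl20, which attracts cells that carry CCR6, had 2 counts at 0 h and stood at 26.4, 54.4 and 102 CPM, with a ratio of 593 at 3 h (164 to 4905). Cxcl10, an interferon-induced chemokine for T cells, stood at 3.61, 76.2, 159 and 562 CPM.

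Other leaders at 3 h gained most of their level after 1 h. Ccl5, a chemokine for T cells and monocytes, stood at 0.43, 1.35, 4.14 and 110 CPM, a 257-fold difference at 3 h (110 to 793). Gbp5, a guanylate-binding protein of cell-autonomous immunity, stood at 1.03, 2.37, 15.5 and 222 CPM, a 215-fold difference (123 to 417). Both genes were at 15.5 CPM or less up to 1 h. Acod1, which makes itaconate, had 1 count at 0 h and stood at 1.82, 12.0 and 103 CPM, with a ratio of 1197 at 3 h (214 to 47330). Spib, an ETS factor of lymphoid and myeloid cells, had 1 count at 0 h and 227 at 3 h, at 20.6 CPM, a ratio of 240 (42.6 to 9516). Cxcl9, a relative of Cxcl10, had 2 counts at 0 h and stood at 29.3 CPM at 3 h, a ratio of 171 (46.9 to 1415). The receptors Clec4e, which senses microbial glycolipids, and Gpr84, for medium-chain fatty acids, reached 161 CPM from 0.688 and 95 CPM from 0.774. H2-M2, a non-classical MHC class I gene, had 0 counts at 0 h and 81 at 3 h, at least 28.5-fold higher against a floor of 3 counts. Several of these genes are best known from myeloid cells, whose markers were present in all 4 libraries at the levels given above.

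The promoters of Ccl20 and Gbp5 each hold 1 kappa-B match and are shown as examples of an early rising and a late rising gene of this class. They lie at chr1:83116516-83116765 and chr3:142496684-142496933, both on the plus strand. The RefSeq start of Gbp5 lies inside the gene span given in the deposited table, which begins further upstream.
Ccl20: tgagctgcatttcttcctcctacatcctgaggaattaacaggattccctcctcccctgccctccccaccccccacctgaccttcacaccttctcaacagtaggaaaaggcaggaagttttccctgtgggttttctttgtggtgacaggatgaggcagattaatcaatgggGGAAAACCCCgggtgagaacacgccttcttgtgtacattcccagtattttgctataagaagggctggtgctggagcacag
Gbp5: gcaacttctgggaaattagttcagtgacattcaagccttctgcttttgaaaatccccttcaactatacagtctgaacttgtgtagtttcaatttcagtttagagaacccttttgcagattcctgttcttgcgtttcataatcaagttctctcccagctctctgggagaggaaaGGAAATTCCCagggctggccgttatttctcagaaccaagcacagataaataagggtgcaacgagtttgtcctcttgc

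**Figure D3:**
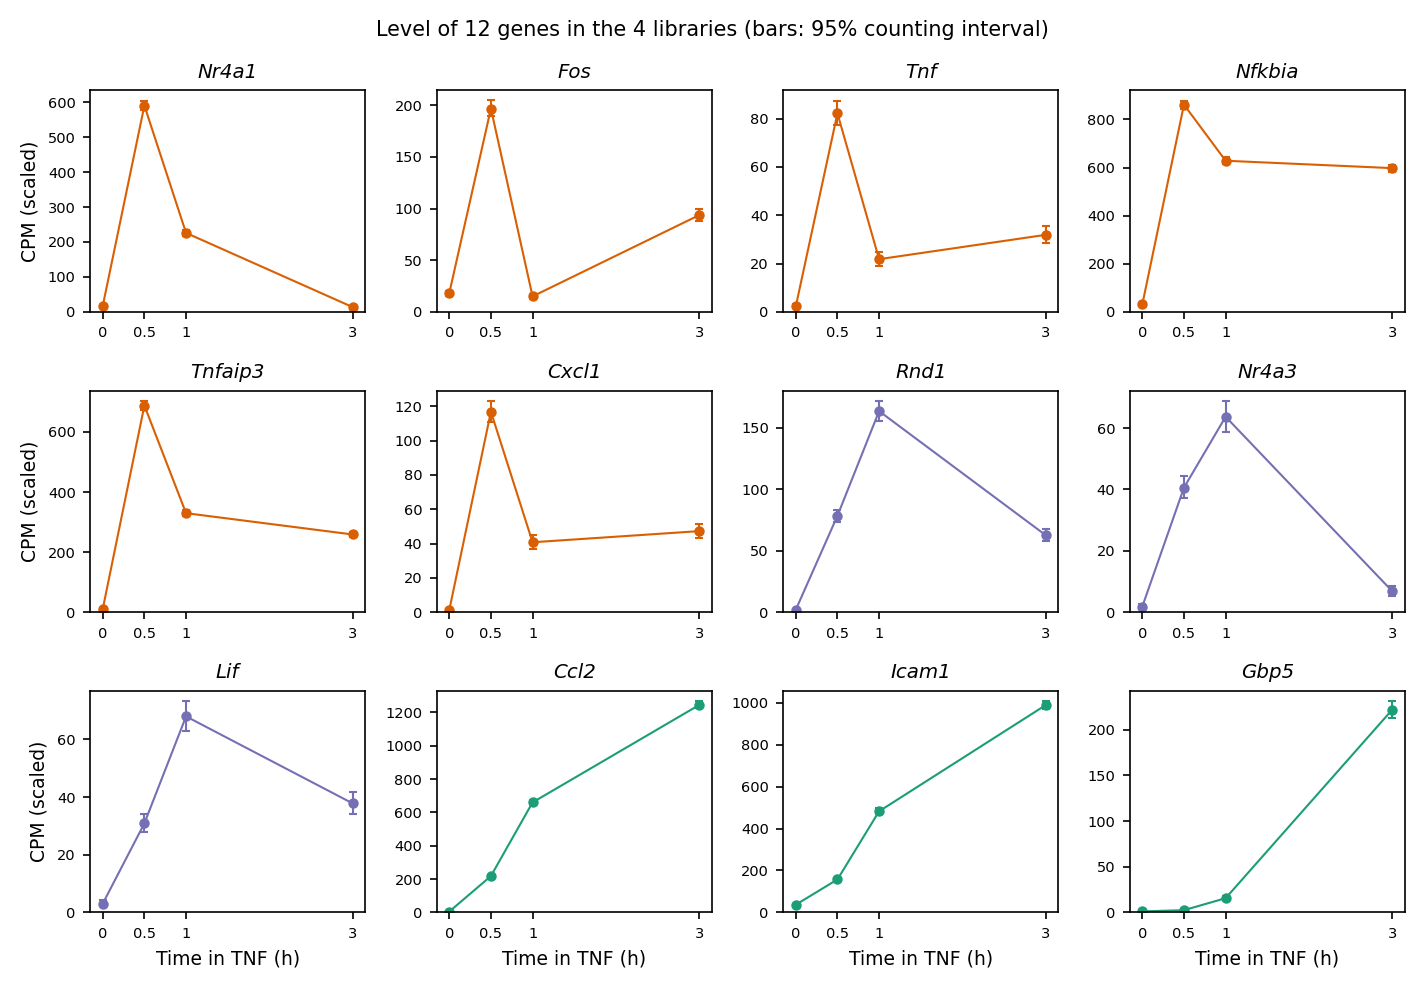
Scaled level in CPM (linear y axis, starting at zero) at 0, 0.5, 1 and 3 h of TNF (x axis) for 12 genes, coloured by peak time, 1 library per point with its 95% counting interval. Nr4a1 returns from 590 to 13.6 CPM, Nfkbia stays between 598 and 861 CPM, and Ccl2 goes up to 1245 CPM.

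Promoter windows of the 3 classes were searched for short known motifs on both strands, in 300 bases from 250 before to 50 after each RefSeq start. The kappa-B consensus was found in 15.1% of windows in the 0.5 h class, 13.8% in the 1 h class and 14.8% in the 3 h class, against 5.48% of the windows of all genes tested (732 of 13352). The share was 22.4% among sustained genes and 3.96% among lower genes. The 3 classes therefore hold the kappa-B letters at like shares. They differed more in other motifs. The cyclic AMP response element TGACGTCA was found in 8.49%, 4.14% and 2.42% of windows in the 0.5, 1 and 3 h classes, against 2.91% of all. The CArG box, bound by serum response factor, was found in 6.6%, 2.07% and 1.13%, against 1.28%. The core of the interferon-stimulated response element (ISRE) was found in 5.66%, 1.38% and 6.94%, against 3.09%, and the AP-1 site TGAGTCA in 4.72%, 4.83% and 6.94%, against 3.73%. The TATA box TATAAA was found in 17%, 9.66% and 14% of windows, against 7.29%, and the GC box GGGCGG in 60.4%, 58.6% and 55.2%, against 62.2%. These shares come from 106, 145 and 620 windows, were not tested, and a match is a run of letters, not a bound site. Of the 36 genes that lead the 3 classes, 29 have a window in the RefSeq table, and 15 of these hold a kappa-B match in at least 1 window. This counts genes, some with several windows, while the shares above count windows. The 2 cannot be set against each other, and no share per gene was computed over all genes.

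The classes also differed in gene size. The median span from first to last base was 6714 bp in the 0.5 h class (quartiles 2803 and 15001), 11962 bp in the 1 h class and 22475 bp in the 3 h class, against 23724 bp over all genes tested. Median numbers of exon blocks were 4, 5 and 8, against 9 over all genes. The early peaking genes were thus short with few exons, and the late class was close to the average gene. This was not particular to higher genes. Genes lowest at 0.5, 1 and 3 h had median spans of 12982, 13263 and 25028 bp and 5, 5 and 7 exon blocks. Gene models with Gm or Rik names made up 18 of 113, 35 of 186 and 39 of 691 genes in the 3 higher classes. Their share over all genes tested was not counted. These models enter the medians above, and their part in the differences of span and exon number was not tested. These values were not tested.

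**Figure D4:**
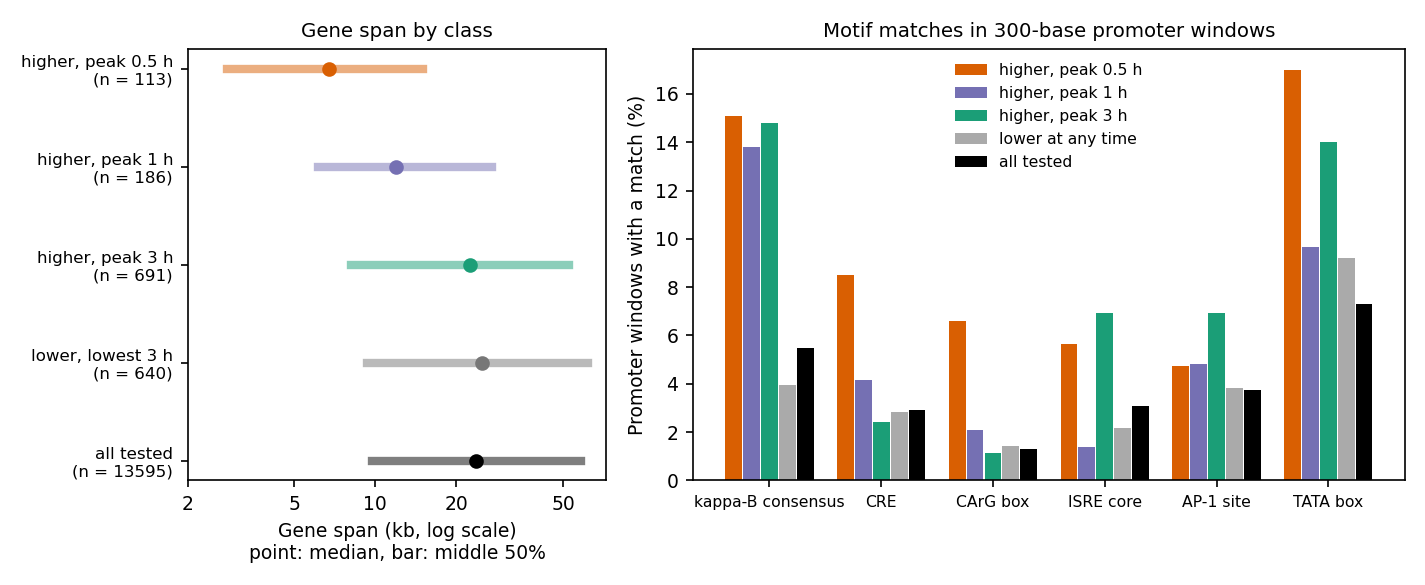
Left, gene span in kb on a log axis (point, median; bar, middle 50%) by class, with the genes lowest at 3 h and all genes tested. Right, percent of 300-base promoter windows with a match to each of 6 motifs. Median spans are 6714, 11962 and 22475 bp in the 0.5, 1 and 3 h classes and 23724 bp over all genes.

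Pathway lists, described in order from the receptor to the effectors, give the same course by function. The counts in each list are to be read beside the shares over all 13595 genes tested. Those were 1.59%, 3.17% and 5.91% higher at 0.5, 1 and 3 h, and 0.39%, 1.35% and 4.88% lower. In the list of TNF receptors and proximal signalling, 5, 5 and 7 of 28 genes were higher at 0.5, 1 and 3 h, none was lower, and the median log2 differences were 0.09, 0.19 and 0.45, against -0.01 over all genes at 3 h. The 8 members called at any time were Tnf, Traf1, Traf3, Birc2, Birc3, Map3k8, Map3k14 and Rnf31. Traf1, an adaptor, stood at 0.859, 2.22, 8.09 and 34.7 CPM, and Birc3, a ubiquitin ligase that protects against cell death, at 15.2, 36.4, 113 and 144 CPM. Map3k8, a MAP kinase kinase kinase, peaked at 0.5 h, at 24.2 CPM from 5.41. Among the NF-kB subunits and inhibitors, 8, 13 and 13 of 15 genes were higher, with medians of 1.10, 2.02 and 2.58. Nfkbie, which encodes IkB epsilon, stood at 9.71, 31.7, 151 and 310 CPM, and Tnip3, a partner of A20, at 2.41, 8.31, 25.7 and 71.5 CPM. Only Rel and Tnip2 of the 15 were never called. Nfkbie was highest at 3 h.

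Immediate early transcription factors were the list with the most calls at 0.5 h, 26 of 28, and the number went down to 21 at 1 h and 10 at 3 h. The medians were 2.96, 1.94 and 0.80, and 18 of the called genes peaked at 0.5 h. Feedback genes for MAP kinase signalling, mRNA decay and cytokine signalling were called in 10, 14 and 12 of 21 cases, with medians of 0.79 and 1.26 at 0.5 and 1 h. Zfp36 encodes tristetraprolin, which speeds the decay of cytokine mRNAs, and stood at 32.5, 662, 136 and 118 CPM. Dusp1, a MAP kinase phosphatase, stood at 9.45, 112, 21.4 and 43.8 CPM, lower at 1 h than before and after. Dusp8, from the same family, declined steadily after its peak, from 63.1 to 39.6 and 20.8 CPM, with 7.13 at 0 h. Dusp6 was the only member called lower, at 1 h (-1.47), and is named because it was seen to differ.

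Chemokine lists reached the largest medians at 3 h. Of the 7 neutrophil-attracting CXC chemokines, 4 were higher at each time and the medians were 1.59, 2.83 and 3.68. Cxcl5 stood at 28, 125, 200 and 362 CPM and Cxcl3, with 2 counts at 0 h, at 0.87, 2.56 and 8.81 CPM, so that these 2 continued to climb while Cxcl1 and Cxcl2 had peaked. The ratio of Cxcl3 at 3 h was 51.25 (13.8 to 429). Among the other chemokines, 8, 11 and 14 of 18 were higher, with medians of 1.12, 1.35 and 3.47, and 13 of the called genes peaked at 3 h. With Ccl22, which had 0 counts at 0 h, set at its bound, these medians are 0.97, 1.29 and 3.47. Cytokines and growth factors were higher in 9, 11 and 13 of 22 cases, with medians of 0.95, 1.18 and 1.46. Tnfsf9, the ligand of 4-1BB, stood at 3.18, 55.8, 7.3 and 7.36 CPM, an early peak that was mostly gone at 1 h. Tslp, a cytokine of barrier tissues, was at 0.344, 0.95, 3.85 and 10.2 CPM and thus late. Csf2, Csf3, Il11, Il12a, Ifnb1 and Areg did not pass the level filter, with at most 10 counts in any of the 4 libraries.

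**Figure D5:**
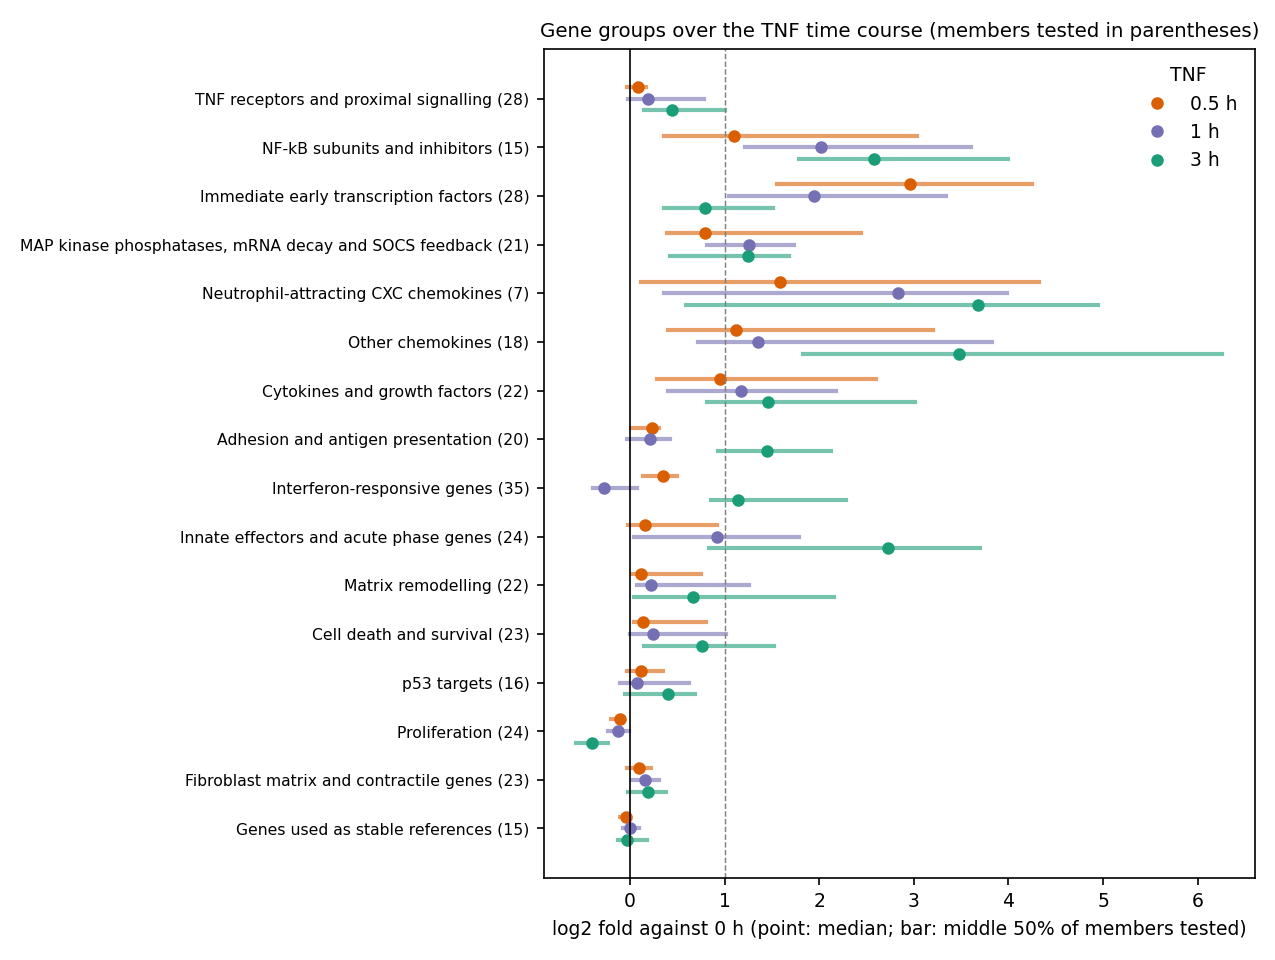
Median log2 difference from 0 h (points, x axis) and the middle 50% of members (bars) for each gene list at 0.5, 1 and 3 h of TNF, with a dashed line at 2-fold. Immediate early factors go down from 2.96 to 0.80, while other chemokines go up from 1.12 to 3.47 and proliferation genes lie at -0.11 to -0.40.

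Genes of adhesion, antigen presentation and interferon responses changed mainly at 3 h. In the list of adhesion and antigen presentation, 3, 4 and 14 of 20 genes were higher, with medians of 0.24, 0.21 and 1.45. Icam1 and Vcam1, adhesion molecules that bind leukocyte integrins, were already called at 0.5 h, Icam1 at 36.4, 157, 482 and 989 CPM and Vcam1 at 124, 347, 820 and 1473 CPM. H2-Q4, an MHC class I gene, was called only at 3 h, at 15, 19.2, 24.9 and 111 CPM. Reads of MHC class I genes may be shared between near-identical copies, so this value is uncertain. Of the 35 interferon-responsive genes, 4, 2 and 22 were higher, with medians of 0.35, -0.28 and 1.15. Against the unstimulated knock-in library, 1 of the 35 was higher at 0.5 h. Irf1, a transcription factor, was the early member of this list, at 29.2, 638, 583 and 280 CPM. Gbp2, a guanylate-binding protein, stood at 26.5, 30.5, 48.8 and 566 CPM and Rsad2, the gene of the antiviral protein viperin, at 11.9, 19.2, 13.8 and 95.7 CPM. Ifnb1, the gene of interferon beta, had no counts before 3 h and 2 counts then.

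Innate effectors and acute phase genes followed the same late course, higher in 4, 12 and 16 of 24 cases, with medians of 0.16, 0.91 and 2.73. Ch25h, which makes 25-hydroxycholesterol, stood at 2.84, 15.1, 11.6 and 88 CPM. Saa3, a serum amyloid A, had 2 counts at 0 h and reached 10.8 CPM at 3 h, with a ratio of 62.9 (17.0 to 525). Nos2, the inducible nitric oxide synthase, had 0 counts at 0, 0.5 and 1 h and 50 at 3 h, at least 17.6-fold higher against 3 counts. Matrix remodelling genes were higher in 3, 7 and 9 of 22 cases and lower in 2 at 3 h, with medians of 0.11, 0.22 and 0.66. The collagenase gene Mmp13 (4.21, 7.28, 8.98 and 32 CPM) and the gelatinase gene Mmp9 (5.59, 4.35, 8.88 and 42.3 CPM) were highest at 3 h. The 2 lower members, named for their direction, were the aggrecanases Adamts1 (-1.26) and Adamts5 (-1.51).

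Cell death and survival genes were higher in 3, 5 and 8 of 23 cases, with medians of 0.14, 0.24 and 0.76. Nlrp3, an inflammasome sensor, was at 3.35 CPM at 0 h and at 73, 84.5 and 98.7 CPM under TNF, a level reached at once and held. Fas, a death receptor, was later, at 13.1, 14.3, 50 and 155 CPM, and so was the inflammatory caspase gene Casp4, at 4.13, 5.54, 16 and 37.5 CPM. Gadd45b, a stress-response gene, stood at 22.9, 176, 176 and 81.7 CPM. Of 16 p53 targets, 2, 1 and 3 were higher and 1 was lower at 3 h, with medians of 0.12, 0.08 and 0.40. The 1 higher at 1 h and the 1 lower at 3 h lie near the shares over all genes, 3.17% and 4.88%. They are therefore no result about this list. The higher members Plk2 and Plk3 are polo-like kinases, Plk2 at 122, 277, 224 and 259 CPM and Plk3 at 4.99, 15.9, 13.8 and 8.99 CPM, and Tnfrsf10b, a death receptor gene, reached 79.8 CPM from 33.8. The lower member, Sesn1, a stress-inducible sestrin, stood at 108, 87.8, 60.5 and 41.1 CPM. Without scaling factors the median at 1 h is -0.02.

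Proliferation genes and fibroblast matrix genes changed little by comparison. None of the 24 proliferation genes was called at any time, with medians of -0.11, -0.12 and -0.40, and against the unstimulated knock-in library in place of the control the medians were 0.27, 0.23 and -0.05. Of 23 fibroblast matrix and contractile genes, 2 were higher at 0.5 h, 2 at 1 h and none at 3 h, with medians of 0.09, 0.16 and 0.20, and of -0.07, -0.04 and -0.01 against that other baseline. Those 2 at 0.5 h were Ccn1 and Ccn2, matricellular genes of the immediate early type. Ccn1 stood at 252, 1318, 191 and 360 CPM and Ccn2 at 157, 409, 325 and 144 CPM. Ankrd1, a muscle ankyrin repeat gene, stood at 2.15, 3.4, 5.13 and 1.73 CPM and was called at 1 h. The 15 genes used as stable references had no call, with medians of -0.05, 0.00 and -0.03.

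Levels per kilobase of exon, which allow genes to be ranked against each other, put Ccn1 on top at 0.5 h and Ccl2 at 1 and 3 h. At 0.5 h the highest levels among higher genes were those of Ccn1 (653 CPM per kb), Nfkbia (546), Zfp36 (370) and Junb (301). At 1 h Ccl2 led with 580 CPM per kb, ahead of Nfkbia (398) and Ccl7 (289.5). At 3 h Ccl2 reached 1094 CPM per kb, followed by Igfbp5 (766), which binds insulin-like growth factors, Mt2 (462), a metallothionein, and Icam1 (389). Nfkbia was thus among the leaders at 0.5 and 1 h and stood at 379 CPM per kb at 3 h. Ccl2 changed from 3.78 CPM per kb at 0 h to the top of the list.

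Lower genes were late and their differences were smaller. Of the 809, 34 (4.2%) were lowest at 0.5 h, 135 (16.7%) at 1 h and 640 (79.1%) at 3 h, which is 0.25%, 0.993% and 4.71% of the genes tested. The median log2 difference at the lowest time was -1.31 in each of the 3 classes. Those lowest at 3 h were led by Abcd2, a peroxisomal fatty acid transporter, at 22.4, 17.6, 11.5 and 1.82 CPM (-3.50). Rasgrp3, an activator of Ras proteins, stood at 60, 66.9, 50.6 and 6.18 CPM (-3.24), so that nearly all of its decline came after 1 h. Gpr34, a lysophosphatidylserine receptor, followed the same course at 21, 20.3, 14.9 and 2.18 CPM. Il16, a chemoattractant cytokine, stood at 12, 10.4, 4.44 and 1.18 CPM, and Lpar5, a lysophosphatidic acid receptor, at 5.41, 4.43, 2.37 and 0.454 CPM. Some of these 5 are best known from immune cells. Macrophage markers had a median log2 difference of 0.16 at 3 h, with a range of -0.71 to 2.47, the upper end being Cd14, and their part in these differences was not tested.

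Early declines were mostly transient. Median levels at 0 h were 1.805, 4.985 and 6.704 CPM in genes lowest at 0.5, 1 and 3 h, against 25.4 over all genes tested. In genes that peaked at 0.5, 1 and 3 h they were 5.329, 4.641 and 8.423 CPM, so a low level was not particular to the early declines. Of the 135 genes lowest at 1 h, 112 were transient, and the leaders Fam78a (6.7, 4.27, 1.48 and 3.36 CPM), Zfp128 (8.17, 4.35, 2.27 and 4.09 CPM) and Hhex, a homeobox factor (13.2, 8.15, 3.95 and 8.9 CPM), had partly returned at 3 h. Rab3a, a vesicle GTPase, stood at 8.85, 7.36, 2.56 and 3.63 CPM and Zfp775 at 6.1, 3.96, 1.87 and 3.36 CPM. At 0.5 h the zinc finger genes Zfp87 (16.5 to 6.65 CPM), Zfp870 (11.8 to 4.83 CPM) and Zfp658 (10.1 to 4.75 CPM) were among the 5 leaders. The other 2 were the cartilage and bone gene Ibsp, at 6.1, 0.396, 0.592 and 1.09 CPM, and the glial gene Gfap, at 57.7, 25.5, 32.3 and 30.7 CPM. S100b, another glial gene, was at 2.15, 0.95, 0.986 and 0.636 CPM. Neural and Schwann markers summed to 138, 104, 112 and 129 CPM and cartilage markers to 1038, 1109, 1186 and 1069 CPM. These sums do not show which cells carried the transcripts. In the unstimulated knock-in library Gfap stood at 7.54 CPM, and against that baseline the 0.5 h library was higher (1.71). In the knock-in's own TNF libraries Gfap stood at 7.07, 15.3 and 10.9 CPM, with a log2 difference of -0.09 at 0.5 h. Its level was thus lower in the knock-in at every time, so the change of baseline cannot judge the decline of Gfap. That decline rests on 1 control library per time. Against the knock-in baseline, 21 of the 53 genes lower at 0.5 h and 107 of the 184 lower at 1 h were called lower again.

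Compared as a group of 3 with the single 0 h library, the TNF libraries gave no gene past an adjusted p of 0.05 in the quasi-likelihood test of edgeR (0 higher, 0 lower, with 275 genes at an unadjusted p under 0.05). This fit has 2 residual degrees of freedom and counts the change between TNF times as spread. Nfkbia was among the closest, higher in 3 of 3 TNF libraries with a log2 difference of 4.49 (SE 0.32, adjusted p = 0.202). DESeq2 on the same libraries called 83 genes (0.611%) higher and 1 lower. Of the 83, 71 were sustained, 7 transient and 0 late, and 82 were also past the 2-fold rule at some time. Without the 0.5 h library edgeR called 11 genes higher, without the 3 h library 7 and without the 1 h library 0.

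A fit chosen after the data were seen used the knock-in libraries as a second series, with genotype and time as terms over 8 libraries. In this edgeR fit, at an adjusted p under 0.05, the 0.5 h comparison had 48 higher (0.353%) and 4 lower genes (0.0294%). There were 337 higher (2.48%) and 248 lower genes (1.82%) at 1 h, and for 3 h these numbers were 2529 (18.6%) and 2411 (17.7%). These calls have no fold limit. At 2-fold or more, higher calls numbered 28, 108 and 483 at the 3 times and lower calls 2, 57 and 482. Of the genes called higher in the control series, 12.5%, 26.9% and 63.3% were also called higher there, which is 56.2%, 34.4% and 20.1% of that fit's calls. For lower genes the shares were 5.66%, 33.7% and 75.3% of the control series and 75%, 25% and 20.7% of that fit's calls. Ccl2 had a common log2 difference of 7.47 at 3 h (SE 1.26, adjusted p = 0.0258) and Rasgrp3 one of -3.03 (SE 0.12, adjusted p = 1.361e-05). A response that differs between genotypes enters the spread of this fit. Differences between the genotypes were not tested. In the knock-in's own series, Tnfaip3 had log2 differences of 1.07, 1.60 and 2.24, Icam1 of 0.34, 0.57 and 2.03, and Nr4a1 of 4.89, 3.76 and 2.56.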

How the data were processed

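RNA was sequenced as single-end reads of 50 nt from stranded polyA libraries made with 12 PCR cycles, per the labels' protocols. Cutadapt 1.12, STAR, featureCounts 1.5.1, DESeq2 and build mm10 are named per the submitters' processing notes. Not given in the sources used here are the STAR and DESeq2 versions, annotation, strand setting and treatment of multi-mapping reads, so overlapping and near-identical genes are uncertain. The authors deposited whole-number counts per gene, not normalized, for 45706 genes, of which 45143 (98.8%) matched a symbol, with gene positions and lengths.

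From these counts, levels were scaled by TMM factors (0.956 to 1.05) from edgeR 4.0.16 in R 4.3.3. Log2 differences use a prior count of 2 and are understated for low genes, and counting intervals are exact (Clopper-Pearson, 95%). PCR copies are counted as molecules, and no other error is covered. Where 0 h held 1 to 3 counts the ratio and its interval are given, and where it held 0 the bound against 3 counts in the library. The test of 3 against 1 library used edgeR's quasi-likelihood F test (robust) with Benjamini-Hochberg adjustment, and DESeq2 1.42.0 as an alternative. Its p-values reflect spread among the 3 TNF libraries, since the single 0 h library is fitted exactly. That spread includes the change between TNF times and may also be technical.

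Genes named were the 12 with the largest difference in each peak class (at least 5 CPM at the peak), the 5 with the largest fall in each class of lowest level (at least 5 CPM at 0 h), up to 4 called members per list, and Rel and Rela. Gene models without a proper name were counted and not named. Of the genes this rule picks, 1 is not reported here. Genes named outside this rule (Lyz2, Dusp6, Adamts1, Adamts5, Igfbp5, Mt2, Ccl22, Tnip2, Traf3, Birc2, Map3k14, Rnf31 and genes under the level filter) were chosen after their values were seen. The members and the 16 pathway and 7 marker lists were chosen with earlier results of these data known. Promoters are RefSeq windows. Alternatives were other scalings, filters, prior counts, fold limits, limits for a resolved peak and another baseline.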

Additional observations from a re-analysis of the deposited data

Results flagged for a closer look

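For 3 of the named genes the control and knock-in series, each against its own 0 h library, lay past the 2-fold rule in opposite directions. Gbp5 had a log2 difference of 1.08 at 0.5 h in control cells and -1.39 in the knock-in, and at 1 h of 3.70 and -1.22. Acod1 stood at 2.93 and -2.64 at 0.5 h, and at 5.54 and -2.24 at 1 h. Ibsp was lower in control cells at 3 h, at -2.31, and higher in the knock-in, at 2.95. Each value rests on 1 library a side, and the difference between the genotypes was not tested. The 0 h levels behind them were 1.03 CPM (control) and 1.68 CPM (knock-in) for Gbp5, 1 count and 1.51 CPM for Acod1, and 6.1 and 11.8 CPM for Ibsp. At 0.5 and 1 h the knock-in counts were 6 and 7 for Gbp5. For Acod1 they were 1 and 2, under the floor of 3 counts. Over all genes, 4 of 216, 4 of 431 and 5 of 804 higher genes had an opposite call in the knock-in at 0.5, 1 and 3 h. Among lower genes these were 0 of 53, 0 of 184 and 3 of 664.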

How the results depend on the processing

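No paired analysis was possible because the labels give 1 library per group and no replicate numbers, and the 8-library fit has genotype, not a replicate, as a term. Scaling by DESeq2 size factors or library totals, prior counts of 0.5 and 5 and the absence of a filter on low counts left every count from the fold and class rules within 1.5 times its value. Of the 209 called differences of named genes, all kept their direction under these settings and 208 did against the unstimulated knock-in library, where 75 lay outside the counting interval. The exception was Gfap at 0.5 h, which turned to 1.71. With that library in the level filter as well, the genes lower at 0.5 h went from 53 to 132. Those lowest at 0.5 h went from 34 to 72, and over the same 13595 genes 90 were lower at 0.5 h. Called lower again at 0.5, 1 and 3 h against that library were 21 of 53, 107 of 184 and 426 of 664 genes. Called higher again were 154 of 216, 308 of 431 and 651 of 804. With a mean of at least 5 CPM, lower genes numbered 8, 62 and 343 at 0.5, 1 and 3 h, lowest classes 6, 46 and 338, 0.5 h peaks 73 (39 resolved), 1 h peaks 110 (32 resolved) and transient genes 99. With a 1.5-fold rule, higher genes numbered 375, 771 and 1557, lower genes 186, 569 and 1584, lowest classes 89, 392 and 1487, peaks at 1 and 3 h 346 and 1345, and sustained, transient and late genes 209, 276 and 986. Resolved peaks at 1 h numbered 129 with the limit lowered from 1.5-fold, and 37, 21 and 341 at 0.5, 1 and 3 h with a limit of 2-fold. For the 3 TNF libraries against 0 h, edgeR without a filter called 14 higher and 1 lower, DESeq2 83 and 1, and leaving out a library in turn 0 to 11 higher and 0 lower. The 8-library fit gave 48 higher and 4 lower at 0.5 h and 2529 and 2411 at 3 h without a fold limit, and 28, 2, 483 and 482 at 2-fold or more. Against the knock-in baseline, 7 of 24 innate, 5 of 22 matrix and 5 of 23 cell death genes were higher at 0.5 h, in place of 4, 3 and 3. With library totals 1 of 16 p53 targets was higher at 3 h, in place of 3. The cause of these changes was not tested. With 1 library per time the spread between cultures is unknown, and near 0.241 to 0.29 CPM counting error limits any value.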

Other observations

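Zinc finger genes with names in Zfp made up 12 of the 34 genes lowest at 0.5 h and 42 of the 135 lowest at 1 h, but 11 of the 640 lowest at 3 h and 352 of all 13595 genes tested. This was seen after the classes were made and was not tested.

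Of the 113 higher genes with their peak at 0.5 h, 7 stood at 3 h at least 1.5-fold above 1 h and past the 2-fold rule. They were Cxcl2, Il1b, Dusp1, Fos, Ccl4, Ppfia2 and Fam196a. The step from 1 h to 3 h was given no counting interval. Ppfia2 was low, at 0.258, 1.19, 0.592 and 0.999 CPM, and so was Fam196a, at 0.945, 2.93, 1.38 and 2.72 CPM. For these 2 the step is uncertain. Fos, an AP-1 subunit, stood at 18, 197, 15 and 93.6 CPM, so that at 1 h it was below 0 h. Ccl4, a chemokine for monocytes and T cells, stood at 4.99, 54.4, 7.69 and 21.7 CPM. The rule was set after values were seen, and each level is 1 library.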
